A study of Mus musculus with 144 samples.

Results

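The mitochondrial genome carries 37 mouse genes, and all of them were found by symbol (the prefix mt-) among the 55359 genes counted in primary mouse hepatocytes. Of the 37 genes, 13 encode proteins, 2 encode ribosomal RNAs and 22 encode transfer RNAs. The rule used the symbol alone and no measured value. All 37 genes are listed in the file of every library, 13 of them with a count of 0 throughout. Enough counts to be tested in at least 1 of 42 comparisons were held by 14, and 23 were tested in none.

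The libraries are RNA-Seq of hepatocytes isolated from 28 day old male mice and labelled either wild type (WT, strain C57BL/6NCrl) or PkmΔDRE, a homozygous line in which the dioxin response element of the Pkm gene was removed by CRISPR–Cas9 and whose founders were backcrossed to C57BL/6N. Cells attached for 3 h in serum and were then kept in serum-free Williams' medium E with insulin, transferrin and selenium, dexamethasone, ascorbic acid, Glutamax and antibiotics, which controls and treated cells shared, with 10 nM of the dioxin TCDD or its vehicle, dimethyl sulfoxide (DMSO). TCDD is a persistent ligand of the aryl hydrocarbon receptor, the transcription factor that binds dioxin response elements. The 36 groups are the combinations of 2 labels, 2 treatments and 9 harvest times between 2 and 120 h, with 4 libraries each, and nothing in the labels says that the 4 came from separate animals or cultures, so p-values measure the spread between these libraries, which may be technical.

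Mitochondrial DNA is a small circle that is transcribed almost end to end from both strands by its own RNA polymerase, Polrmt, with the factors Tfam and Tfb2m. The long transcripts are cut apart, mostly at the transfer RNAs that lie between the other genes, and the messenger RNAs then receive short poly(A) tails. The protein products are subunits of the respiratory chain and of ATP synthase, which are abundant in hepatocytes, and the ribosomal and transfer RNAs serve only the translation of these proteins.

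The libraries held between 13588848 and 30719161 counts on genes (median 18011825). The summed level of 8 hepatocyte markers ran from 4787 to 123918 counts per 1000000 gene counts (CPM), and all 8 were found. Markers of macrophages summed to between 14.4 and 228 CPM, of endothelial cells to between 29.5 and 334 CPM, of stellate cells to between 6.11 and 486 CPM, of cholangiocytes to between 6.00 and 1710 CPM and of red blood cells to at most 1.95 CPM. Their part in the values below was not tested, and in bulk samples fewer cells of a type and less RNA per cell cannot be told apart. Cyp1a1, the standard target gene of the receptor, had a median of 3.33 CPM in the 72 vehicle libraries and 4609 CPM in the 64 TCDD libraries harvested from 4 h on. Cyp1a1 stood above 500 CPM in 2 vehicle libraries, WT replicate 1 at 48 h and WT replicate 3 at 96 h (2095 CPM), and below 500 CPM in 7 TCDD libraries, 6 of them from 4 h and 1 from WT at 72 h. Pkm itself went against the labels. At 8 h it lay between 29.1 and 66.8 CPM under TCDD and between 40.2 and 65.9 CPM in vehicle in libraries labelled WT, but between 112.2 and 146.4 CPM under TCDD and between 37.4 and 67.3 CPM in vehicle in libraries labelled PkmΔDRE. WT and PkmΔDRE therefore denote the labels of the libraries throughout. The correlation of each library's log2 CPM with the rest of its group had a median of 0.987 and was under 0.95 for 5 libraries. These were replicate 4 of the PkmΔDRE vehicle groups at 4 h (0.881), 24 h (0.926) and 96 h (0.873), PkmΔDRE vehicle replicate 2 at 48 h (0.943) and WT TCDD replicate 4 at 2 h (0.935). PkmΔDRE vehicle replicate 4 labelled 4 h was most like the groups of 96 h, and the one labelled 96 h was most like those of 4 h (r = 0.987 for each).

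The members' own sequences bear on which of them could be counted, because read pairs were 150 bases from each end and only pairs mapping to 1 place were counted. Uniquely mapped pairs that touch more than 1 gene are ambiguous and were counted for none (4.72% to 8.68% of uniquely mapped pairs per library). The nuclear genome holds copies of mitochondrial DNA, and several are annotated as pseudogenes. The first 60 bases of 3 members are set below beside their nuclear copies, 5′ to 3′ on each gene's own strand, from the GENCODE M21 annotation of GRCm38, with capitals at the bases that differ within a pair. Positions are counted from 1 at the first base of the mitochondrial gene. In mt-Co2, which encodes subunit 2 of cytochrome c oxidase, Gm28661 on chromosome 1 is identical over 681 bases, while Gm13341 on chromosome 2 differs.
mt-Co2: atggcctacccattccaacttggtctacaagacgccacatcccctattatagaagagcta
Gm28661: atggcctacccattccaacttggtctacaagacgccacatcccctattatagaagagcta
mt-Co2 (capitals against Gm13341): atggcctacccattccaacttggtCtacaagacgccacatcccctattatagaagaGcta
Gm13341: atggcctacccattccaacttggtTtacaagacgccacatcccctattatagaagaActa
In mt-Nd3, a small subunit of complex I, the copy Gm28438 differs at 1 base over its 345 bases, and that base lies in the window shown.
mt-Nd3: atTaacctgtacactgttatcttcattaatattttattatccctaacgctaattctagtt
Gm28438: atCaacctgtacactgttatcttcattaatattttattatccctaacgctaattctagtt
In mt-Nd6, the complex I subunit encoded on the other strand from the remaining protein-coding genes, the most similar copy, Gm11408 on chromosome 4, differs at 33 bases.
mt-Nd6: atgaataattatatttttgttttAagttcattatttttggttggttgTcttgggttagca
Gm11408: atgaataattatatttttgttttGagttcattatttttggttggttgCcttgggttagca
Neighbouring members also share bases. The last 60 bases of mt-Atp8 and of mt-Nd5 are shown with capitals over the part that also belongs to the next gene, which is the first 43 bases of mt-Atp6 on the same strand and the last 14 bases of mt-Nd6 on the opposite strand.
mt-Atp8: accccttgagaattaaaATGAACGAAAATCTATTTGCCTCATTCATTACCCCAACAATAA
mt-Nd5: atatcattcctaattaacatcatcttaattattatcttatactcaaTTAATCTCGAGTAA
The transfer RNA of proline, mt-Tp, is the one transfer RNA gene that passed the filter on low counts, and its 67 bases lie on the minus strand of chromosome M at 15356 to 15422.
mt-Tp: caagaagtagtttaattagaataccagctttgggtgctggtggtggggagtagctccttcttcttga

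Of the 90129075 counts on the mitochondrial genome over all libraries, 99.96% fell on 10 of the 37 genes. The largest share, 48.9%, was on mt-Co1, the catalytic subunit of cytochrome c oxidase (chromosome M, 5328 to 6872), with a median of 271262 counts per library and a range from 116921 to 853576. The complex I subunits mt-Nd1, mt-Nd4, mt-Nd5 and mt-Nd2 held 10.8%, 8.89%, 8.67% and 8.47%, and mt-Cytb, the cytochrome b subunit of complex III (14145 to 15288), held 8.83%. The medians of these 6 genes were all at or above the 44318.5 counts of mt-Cytb. The 16S ribosomal RNA gene mt-Rnr2 (1094 to 2675) held 1.84% and the 12S gene mt-Rnr1 (70 to 1024) held 1.54%, with medians of 9059 and 7669 counts and ranges from 1601 to 79427 and from 1024 to 59972. The ratio of the highest to the lowest count was thus larger for the ribosomal RNAs than for mt-Co1. mt-Nd6 (13552 to 14070, minus strand) held 1.46% and mt-Tp held 0.536%.

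The other members were close to the floor. Per library, mt-Co3 had a median of 98 counts (22 to 363), mt-Co2 64.5 (20 to 159), mt-Atp6 29.5 (lowest 6), mt-Nd4l 13.5 (1 to 47), mt-Nd3 2 (0 to 16) and mt-Atp8 1 (0 to 8). mt-Co2 and mt-Co3 are, like mt-Co1, core subunits of cytochrome c oxidase, and mt-Atp6 and mt-Atp8 are the ATP synthase subunits encoded in mitochondria. Among the transfer RNAs, 13 were at 0 in every library and 9 had a count in at least 1 library, with no count above 27 outside mt-Tp. The most counted of these was mt-Tc, the transfer RNA of cysteine.

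Most protein-coding members with few counts had exact nuclear copies. Of all 150-base windows of a gene, an exact match in another annotated transcript was found for 99.8% in mt-Co3, 99.4% in mt-Co2 and in mt-Atp6, 98% in mt-Nd4l and 97% in mt-Nd3. These 5 genes together held 0.0381% of the mitochondrial counts. Windows of mt-Nd4 were copied in 59.2% of cases and windows of mt-Co1 in 23.6%, and the other 8 protein-coding and ribosomal RNA genes had no copied window. mt-Atp8 stood out among those, since none of its 55 windows was copied in an annotated transcript and its median count was 1. It lies between mt-Co2 and mt-Atp6, whose copies Gm28661 and Gm10925 are neighbours on chromosome 1. The stretch between these 2 copies is not an annotated transcript and was not searched, so a copy of mt-Atp8 there would have been missed. mt-Atp8 also shares 43 of its 204 bases with mt-Atp6, and pairs that touch both genes are ambiguous and counted for neither. The part of either in its low count was not tested. The copies lie in 1 cluster on the minus strand of chromosome 1 (GRCm38), with Gm10222 for mt-Nd4l at 24612407 to 24612700, Gm28438 for mt-Nd3 at 24612775 to 24613119, Gm28437 for mt-Co3 at 24613189 to 24613971, Gm10925 for mt-Atp6 at 24613974 to 24614651 and Gm28661 for mt-Co2 at 24614885 to 24615565. The first 876 bases of mt-Nd4 are copied in Gm28439 at 24611535 to 24612410, and the end of mt-Co1 is copied, with 1 mismatch over 483 bases, in Gm29216 at 24615706 to 24616197. The copies themselves had medians of 77 counts for Gm28437 (mt-Co3 98), 72 for Gm28661 (mt-Co2 64.5), 41.5 for Gm10925 (mt-Atp6 29.5) and 11 for Gm10222 (mt-Nd4l 13.5). Gm28438 had a median of 207.5 counts (32 to 802) beside 2 for mt-Nd3. Counts of these 5 members and of their copies come from the few pairs that reach a distinguishing base, so both are uncertain as levels of their RNA, and the part of the copies in the low counts was not tested.

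**Figure D1:**
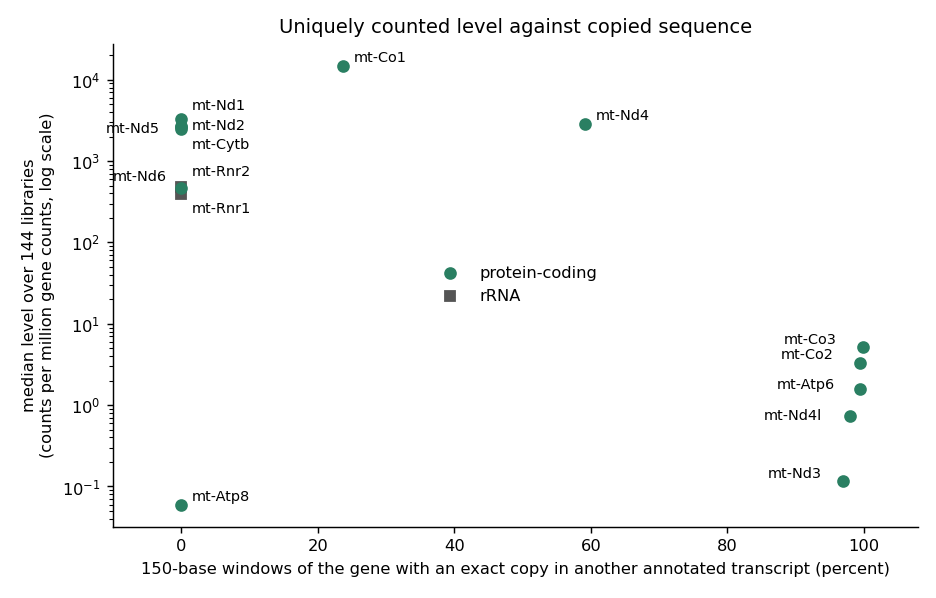
Median level over all libraries (CPM, log axis) of the 15 protein-coding and ribosomal RNA genes of mitochondrial DNA against the percentage of their 150-base windows with an exact copy in another annotated transcript. The 5 genes with more than 95% of windows copied lie at the bottom right, with mt-Co3 highest at 5.16 CPM. mt-Atp8 lies at the bottom left with no window copied in an annotated transcript, and sequence outside annotated transcripts was not searched.

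Levels between genes were compared only per number of uncopied 150-base windows, for the 9 genes with at least 300 of them. On that scale mt-Co1 had a median of 13875 CPM per 1000 uncopied windows and mt-Nd4 5711, followed by mt-Nd1 at 4061, mt-Nd2 at 2993, mt-Cytb at 2464, mt-Nd5 at 1604 and mt-Nd6 at 1252. The values of mt-Co1 and mt-Nd4 may be too high on this scale, because 23.6% and 59.2% of their windows were copied. A pair with a read in copied sequence can still be counted when its mate reaches uncopied sequence. The rank of mt-Nd4 among the protein-coding genes is therefore uncertain. The ribosomal RNAs came last on the scale, at 495 for mt-Rnr1 and 334 for mt-Rnr2. Whether messenger RNA was selected by its poly(A) tail before sequencing is not given in the sources used here, and ribosomal RNA levels depend on that step.

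Across libraries the mitochondrial genome took between 1.37% and 7.06% of all gene counts, with a median of 3.14%. The share was highest at the start of culture and lower at the end. Over the 16 libraries of each time point its median started at 4.91% (2 h), went through 3.94%, 3.53% and 3.99% by 12 h, and then declined through 3.15% (24 h), 2.61%, 2.52% and 2.46% to 2.30% (120 h). In WT vehicle libraries the share was 4.75%, 4.80%, 4.95% and 4.71% at 2 h and 2.62%, 2.40%, 1.88% and 2.31% at 120 h. In PkmΔDRE vehicle libraries it was 4.93%, 4.89%, 3.62% and 3.82% at 2 h and 1.55%, 2.93%, 2.14% and 1.37% at 120 h. In both the libraries of 120 h lay below all those of 2 h. The ratio of the mean share at 120 h to that at 2 h was 0.480 ± 0.0659 (SD from the spread of both groups, n = 4 per group) for WT vehicle, 0.463 ± 0.178 for PkmΔDRE vehicle, 0.530 ± 0.185 for WT TCDD and 0.419 ± 0.149 for PkmΔDRE TCDD. The WT TCDD groups overlapped, because WT TCDD replicate 4 at 2 h, one of the libraries that stood apart, had a share of 3.04% beside 6.26%, 6.89% and 6.17% in the other 3, and the ratio without it was 0.460. No p is given for the share, which sums the members.

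TCDD separated the share from vehicle at 1 of 9 harvest times in WT and at 0 of 9 in PkmΔDRE. The separation was at 96 h in WT, where the share was 2.18%, 1.95%, 2.29% and 1.98% in vehicle and 2.93%, 3.32%, 2.72% and 2.61% under TCDD. At 8 h in WT it was 2.67%, 3.02%, 2.92% and 3.24% in vehicle and 3.02%, 5.29%, 6.13% and 5.13% under TCDD, so that 3 TCDD libraries lay above all vehicle libraries and 1 lay among them. In PkmΔDRE at 8 h the groups overlapped, with 3.82%, 5.06%, 3.29% and 3.36% in vehicle and 3.03%, 4.43%, 3.69% and 4.65% under TCDD. Between the labels in vehicle, the share was separated at 1 of 9 times, 8 h, with PkmΔDRE higher (3.88% ± 0.818 against 2.96% ± 0.236, SD, n = 4).

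**Figure D2:**
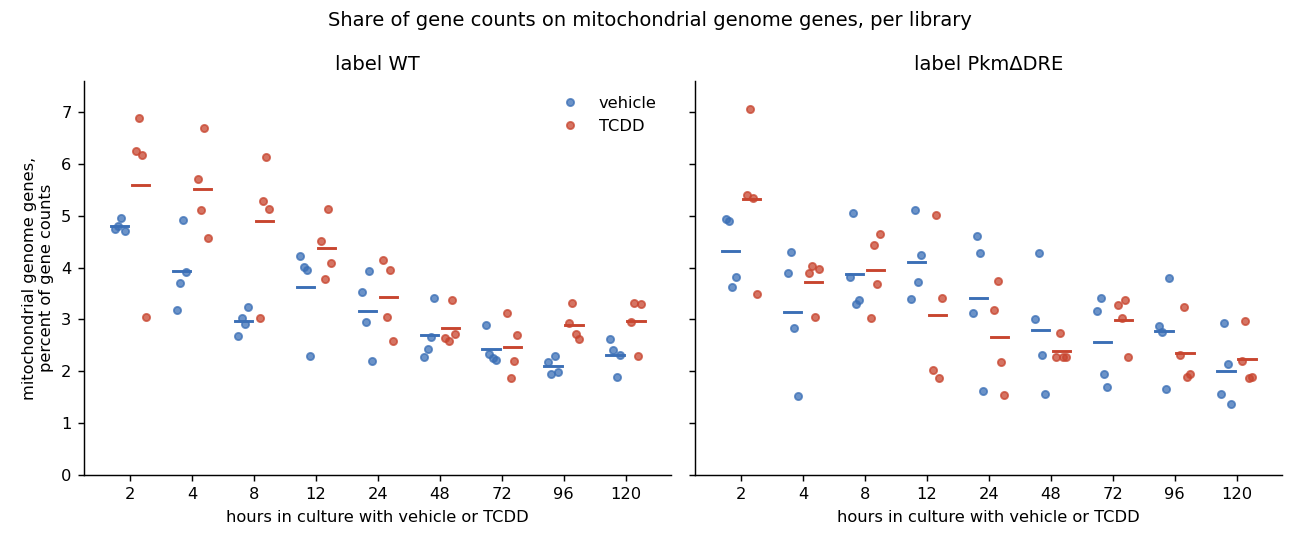
Share of gene counts on the 37 mitochondrial genome genes (percent) by harvest time (h) in libraries labelled WT and PkmΔDRE, vehicle in blue and TCDD in red, with a dot per library and a line at the mean of 4. Medians fell from 4.91% at 2 h to 2.30% at 120 h, and in WT the TCDD libraries lay above the vehicle libraries without overlap at 96 h alone.

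The share moved with a property of the alignment to which mitochondrial pairs themselves contribute. Over all libraries the share correlated with the percentage of pairs mapped to several places at r = 0.81 (Spearman's rho 0.80), and at r = 0.67 for deviations from the group means. Mitochondrial pairs wholly within exactly copied sequence map to several places, so they enter that percentage and are left out of the share. With the percentage of pairs on no gene, which here and below is taken of the uniquely mapped pairs, r was 0.02. These are descriptions over libraries that share groups and depth, and the part of either in the share was not tested.

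The next question was whether TCDD changed the RNA of single members. In WT hepatocytes at 8 h, edgeR's quasi-likelihood test with thresholds of 0.05 on the Benjamini-Hochberg adjusted p and 1.5-fold on the change called 5 of the 14 tested members higher and none lower, beside 37.4% of all genes tested called in either direction and 23.8% called higher. The share of members called was thus near that of all genes. The median log2 fold change of the members was 0.41, against 0.0040 for all genes. The 5 were both ribosomal RNAs, the complex I subunits mt-Nd5 and mt-Nd4, and mt-Co1.

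The ribosomal RNAs changed most at 8 h in WT. mt-Rnr1 stood at 388, 361, 522 and 487 CPM in vehicle and at 1055, 1723, 1506 and 1817 CPM under TCDD. mt-Rnr2 stood at 434, 415, 602 and 630 CPM in vehicle and at 1085, 1779, 1580 and 1685 CPM under TCDD. Every TCDD library lay above every vehicle library for both, which held for no other member and for 18.1% of all genes. The log2 fold change (± SE) was 1.64 ± 0.15 for mt-Rnr1 (3.11-fold, edgeR adjusted p = 0.000365) and 1.41 ± 0.15 for mt-Rnr2 (2.65-fold, edgeR adjusted p = 0.000473).

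The called protein-coding members changed less and their groups overlapped. mt-Nd5 stood at 2108, 2459, 2969 and 3245 CPM in vehicle and at 2585, 6305, 6229 and 5646 CPM under TCDD, a log2 fold change of 0.77 ± 0.20 (edgeR adjusted p = 0.00819). mt-Co1 stood at 12662, 14485, 12628 and 14284 CPM in vehicle and at 14099, 22786, 32411 and 24306 CPM under TCDD, a log2 fold change of 0.60 ± 0.19 (edgeR adjusted p = 0.0217). mt-Nd4 rose by 0.61 ± 0.18 (edgeR adjusted p = 0.0147). For each of the 3, the lowest TCDD library was replicate 1, in which 21.9% of uniquely mapped pairs fell on no gene, against 4.89% to 5.99% in the vehicle libraries. Without it 6 members were called and the median of the 14 tested was 0.55, whereas 3 were called without TCDD replicate 3 and 3 without TCDD replicate 4. The shares of all genes called without these libraries are not given here.

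Other respiratory chain subunits did not pass both thresholds at 8 h in WT. mt-Nd2 (log2 fold change 0.53 ± 0.17, edgeR adjusted p = 0.0245) and mt-Nd6 (0.38 ± 0.13, edgeR adjusted p = 0.0346) passed the p alone, making 7 of 14 members beside 45.5% of all genes. mt-Cytb had a log2 fold change of 0.22 ± 0.15 and mt-Nd1 one of −0.10 ± 0.19. mt-Nd1 follows mt-Rnr2 on the same strand with a transfer RNA gene between them, and its libraries overlapped, at 4052, 4421, 3372 and 3686 CPM in vehicle and 2654, 5269, 4491 and 4119 CPM under TCDD. Among members with nuclear copies, mt-Co2 had −0.32 ± 0.29, mt-Co3 −0.093 ± 0.24, mt-Atp6 0.16 ± 0.39 and mt-Nd4l 0.29 ± 0.68. The transfer RNA gene mt-Tp had 0.45 ± 0.18 (edgeR adjusted p = 0.0601).

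The ribosomal RNAs made up 3.23% ± 0.544 of mitochondrial counts in WT vehicle at 8 h and 6.39% ± 0.925 under TCDD (SD, n = 4). Pairs on no gene moved with them, at 8.36% to 21.9% of uniquely mapped pairs in the TCDD libraries and 4.89% to 5.99% in vehicle. When that percentage was added to the fit, 7 members were called and the log2 fold changes were 1.77 for mt-Rnr1 and 1.53 for mt-Rnr2. The share of all genes called in that fit is not given here. As the percentage did not overlap between the treatments, the fit cannot fully separate it from TCDD. Over all libraries the ribosomal RNA percentage of mitochondrial counts correlated with the percentage of pairs on no gene at r = 0.49 (Spearman's rho 0.47), a description over libraries of shared groups.

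At 96 h in WT, 2 of 14 members were called higher and none lower, beside 15.1% of all genes called and 10.1% called higher, and both were again the ribosomal RNAs. mt-Rnr2 stood at 290, 385, 271 and 215 CPM in vehicle and at 618, 534, 518 and 729 CPM under TCDD, with a log2 fold change of 1.01 ± 0.17 (edgeR adjusted p = 0.00231). mt-Rnr1 stood at 270, 321, 223 and 140 CPM in vehicle and at 497, 329, 396 and 493 CPM under TCDD, with 0.80 ± 0.24 (edgeR adjusted p = 0.0295). Neither overlapped between the treatments, although the gap for mt-Rnr1 was from 321 to 329 CPM. All 14 log2 fold changes were positive with a median of 0.38, and 9 members did not overlap, beside 17.9% of all genes that were higher without overlap. By the adjusted p alone 7 members passed, beside 32.8% of all genes. They included mt-Co1 (0.52 ± 0.11, edgeR adjusted p = 0.00469), at 9693, 8422, 10242 and 8961 CPM in vehicle and 13173, 16168, 13456 and 12310 CPM under TCDD.

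At 96 h the call of mt-Rnr1 rested on single libraries, while mt-Rnr2 was called without each library in turn (log2 fold change 0.88 to 1.17). WT vehicle replicate 3, the library with 2095 CPM of Cyp1a1, left mt-Rnr2 called when it was taken out (log2 fold change 0.97, edgeR adjusted p = 0.00671) and mt-Rnr1 not (0.76, edgeR adjusted p = 0.0614). The call of mt-Rnr1 was also lost without TCDD replicate 1, 3 or 4. Pairs on no gene were 6.21% to 9.40% in vehicle and 9.08% to 11.8% under TCDD, and when they were added to the fit neither was called, with 0.55 for mt-Rnr2 (edgeR adjusted p = 0.0246) and 0.18 for mt-Rnr1 (edgeR adjusted p = 0.482). In that fit 2 other members were called higher in their place, mt-Co1 (0.61, edgeR adjusted p = 0.0221) and mt-Tp (0.72, edgeR adjusted p = 0.0191). The share of all genes called in that fit is not given here. As the percentage barely overlapped between the treatments, the fit cannot fully separate it from TCDD. No conclusion is drawn from the lost or gained calls.

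At 120 h in WT the transfer RNA gene mt-Tp was the 1 member called, beside 1.46% of all genes called and 0.958% called higher. It stood at 95.6, 96.3, 105.2 and 113.7 CPM in vehicle and at 140.02, 158.4, 195.4 and 171.9 CPM under TCDD, without overlap, beside 3.74% of all genes higher without overlap. Its log2 fold change was 0.74 ± 0.12 (edgeR adjusted p = 0.0164). Without vehicle replicate 1, TCDD replicate 2 or TCDD replicate 4 it was not called. mt-Tp is encoded opposite to most members and counts were taken without regard to strand, so pairs from its gene and from RNA of the other strand over the same bases cannot be told apart. At 67 bases the gene is also shorter than a 150-base read, so a full read reaches beyond it. Its counts are therefore not read as levels of the mature transfer RNA, and which RNA they come from was not tested.

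At the other 6 times no member was called in WT, where 0% of all genes (2, 4 and 72 h), 0.0321% (12 h), 0.373% (24 h) and 0.00763% (48 h) were called. The median of the members was positive at each, from 0.027 at 72 h to 0.42 at 4 h. At 4 h 8 members had an unadjusted edgeR p under 0.05, beside 17.1% of all genes, with mt-Rnr2 at a log2 fold change of 1.34 and mt-Rnr1 at 0.97. At 2 h 2 members had one, beside 1.37% of all genes, and without WT TCDD replicate 4 the median was 0.48 in place of 0.38, again with no member called. From 12 to 72 h the members with one numbered 1 (2.63% of all genes), 3 (12.3%), 1 (2.57%) and 1 (2.06%). Some libraries of these times had Cyp1a1 levels unlike their group. WT vehicle replicate 1 at 48 h had 3616 CPM, and WT TCDD replicate 4 had 8.24 CPM at 4 h and 36.4 CPM at 72 h. Leaving out any single library at 4, 48 or 72 h gave 0 called members. The lack of calls at these times does not show that TCDD had no effect.

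**Figure D3:**
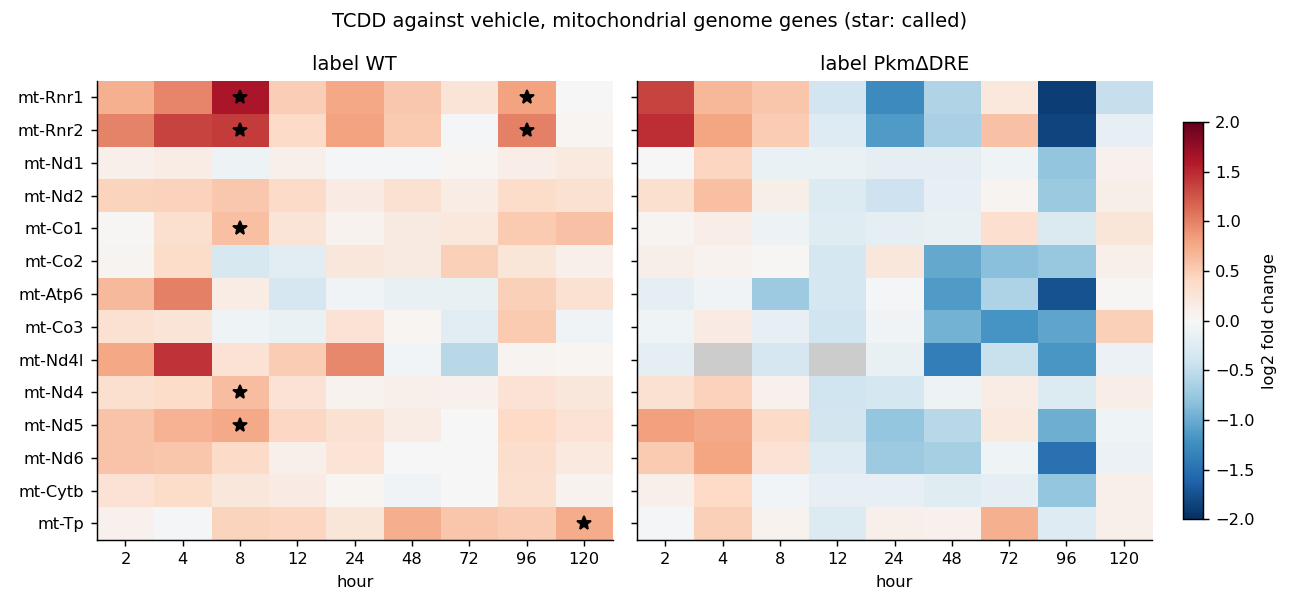
Log2 fold change of TCDD over vehicle for the 14 tested members (rows) at 9 harvest times (columns, h), for WT and PkmΔDRE libraries, blue for lower and red for higher, with a star where edgeR called the gene and grey where it was not tested. Stars fall on 5 members at 8 h, 2 at 96 h and 1 at 120 h in WT and on none in PkmΔDRE.

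In PkmΔDRE libraries no member was called at any of the 9 times, beside 0% of all genes at 2 and 4 h and, for the 7 times from 8 h on in order, 0.106%, 0.024%, 0.016%, 0.404%, 1.13%, 0.0793% and 0.633%. By unadjusted edgeR p under 0.05 the members numbered 4 (2 h, 14.2% of all genes), 3 (48 h, 6.62%), 1 (72 h, 10.7%) and 4 (96 h, 7.2%), and 0 at the other 5 times. At 8 h mt-Rnr1 stood at 400, 954, 506 and 415 CPM in vehicle and at 702, 701, 885 and 1073 CPM under TCDD, with a log2 fold change of 0.56 ± 0.28. mt-Rnr2 stood at 333, 1154, 526 and 466 CPM in vehicle and at 688, 655, 889 and 1293 CPM under TCDD, with 0.51 ± 0.36. For both, vehicle replicate 2 lay inside the TCDD range and the other 3 vehicle libraries lay below it. mt-Nd5 had 0.39 ± 0.29 and mt-Co1 −0.10 ± 0.29.

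The largest ribosomal RNA values of the series were in a PkmΔDRE TCDD group. At 2 h mt-Rnr1 stood at 778, 3767, 769 and 750 CPM and mt-Rnr2 at 1080, 4989, 1028 and 1087 CPM, with replicate 2 far above the other 3. The log2 fold changes were 1.36 ± 0.51 and 1.48 ± 0.52, and the edgeR adjusted p of mt-Rnr2 was 0.280. In that library 11.3% of uniquely mapped pairs fell on no gene.

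Some medians in PkmΔDRE turned on libraries that stood apart. At 96 h all 14 log2 fold changes were below 0 with a median of −0.88, mt-Rnr1 standing at 272, 300, 253 and 950 CPM in vehicle and at 146.8, 230.4, 121.6 and 178.3 CPM under TCDD. Without vehicle replicate 4, the library most like those of 4 h, 6 of the 14 were positive, the median was −0.40, and still no member was called while 321 genes in all were. At 4 h the median went from 0.47 to 0.20 without vehicle replicate 4. At 48 h it went from −0.58 to −0.035 without vehicle replicate 2, and at 24 h from −0.18 to −0.38 without vehicle replicate 4. At 12 h, where no library was set apart, all 13 members tested were below 0, with a median of −0.27.

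**Figure D4:**
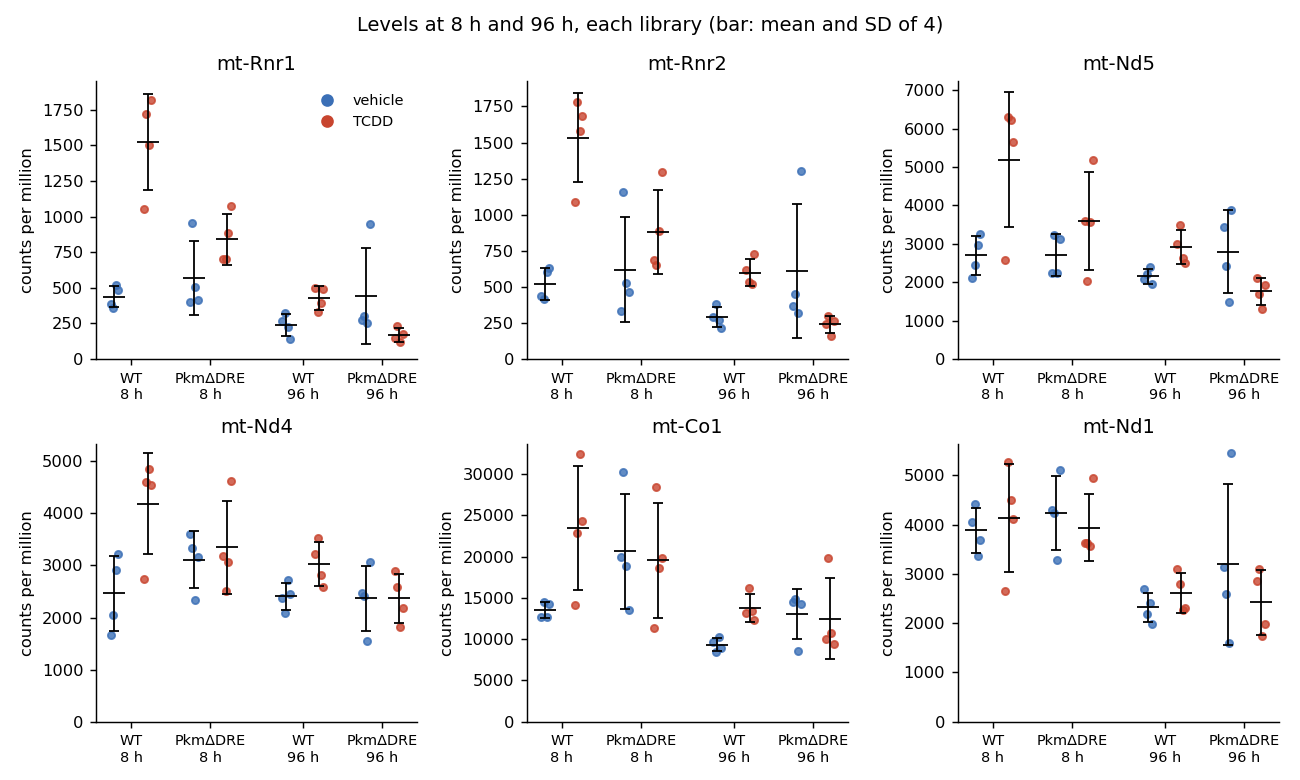
Levels (CPM) of mt-Rnr1, mt-Rnr2, mt-Nd5, mt-Nd4, mt-Co1 and mt-Nd1 at 8 h and 96 h in vehicle and TCDD libraries of both labels, with a point per library and a bar at the mean ± SD of 4. At 8 h the WT TCDD libraries of both ribosomal RNAs, from 1055 CPM upwards, lie above all WT vehicle libraries, and at 96 h 1 PkmΔDRE vehicle library lies far above its group for both.

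Between the labels in vehicle, no member was called at any of 9 times, beside 0% of all genes at 7 of them, 0.0576% at 8 h and 3.68% at 12 h. By unadjusted edgeR p under 0.05, the members numbered 1 (8 h, 9.96% of all genes), 3 (12 h, 25.3%), 1 (24 h, 3.53%), 2 (48 h, 5.6%), 1 (72 h, 4.88%) and 2 (96 h, 5.68%), and 0 at the other 3 times. At 12 h mt-Rnr2 stood at 666, 348, 490 and 314 CPM in WT and at 654, 1817, 743 and 1106 CPM in PkmΔDRE, with a log2 difference of 1.17 ± 0.29 (edgeR adjusted p = 0.0530), and mt-Rnr1 differed by 0.86 ± 0.31 (edgeR adjusted p = 0.127). For mt-Rnr2 the groups overlapped by 1 library of each. At 96 h all 14 differences were positive with a median of 0.78, and without PkmΔDRE vehicle replicate 4 the median was 0.034 with 9 positive.

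The difference of the TCDD response between the labels, PkmΔDRE minus WT, was tested in 1 fit of the 16 libraries of each time. No member was called at any time, and of all genes 0% were called at 7 of the times, 0.00715% at 48 h and 0.00695% at 72 h. At 8 h 13 of the 14 differences were negative with a median of −0.52. The difference was −1.20 ± 0.32 for mt-Rnr1 (edgeR adjusted p = 0.292) and −1.01 ± 0.41 for mt-Rnr2 (edgeR adjusted p = 0.294), and 3 members had an unadjusted edgeR p under 0.05 beside 15.9% of all genes. That number was 1 (12 h, 7.25% of all genes), 4 (24 h, 6.24%), 2 (48 h, 1.25%), 7 (96 h, 13.1%) and 1 (120 h, 3.15%), and 0 at the other 3 times. At 96 h all 14 were negative with a median of −1.16, and without PkmΔDRE vehicle replicate 4 all 14 were still negative with a median of −0.64. An effect called in WT and not in PkmΔDRE is therefore not shown to differ between the labels. At 24 h, leaving out PkmΔDRE vehicle replicate 4 gave 1 called member, mt-Rnr2 (−2.18 ± 0.50, edgeR adjusted p = 0.0274), where the full set gave none.

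Time in culture gave the widest changes. Relative to the bulk of expressed genes, as set by the trimmed mean of M-values (TMM), all 14 tested members were called lower at 120 h than at 2 h in WT vehicle, beside 26.9% of all genes called lower. The same count was 14 of 14 in WT TCDD (26.7% of all genes), 14 of 14 in PkmΔDRE vehicle (27.9%) and 13 of 14 in PkmΔDRE TCDD (24%), where mt-Nd4l missed the threshold (edgeR adjusted p = 0.0568). The medians of the members were −2.20, −2.34, −2.35 and −2.46 on the log2 scale, against medians of all genes from 0.10 to 0.16. At 24 h 12 members were already called lower in WT vehicle (24.4% of all genes, median −1.52) and 8 in PkmΔDRE vehicle (13.5%, median −1.09). The comparisons at 24 and 120 h share the vehicle libraries of 2 h.

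The members did not fall to the same extent. In WT vehicle mt-Cytb stood at 5454, 5803, 4931 and 5002 CPM at 2 h and at 1914, 2382, 1474 and 1921 CPM at 120 h, with a log2 change of −2.70 ± 0.24. mt-Co1 stood at 26857, 23573, 27234 and 24299 CPM at 2 h and at 13668, 9875, 9422 and 10607 CPM at 120 h, with −2.48 ± 0.23 (edgeR adjusted p = 6.83e-06). mt-Nd1 changed by −2.63 ± 0.29. In each of the 3 genes every library of 120 h lay below every library of 2 h. mt-Nd5 did otherwise, at 1765, 2120, 2676 and 2463 CPM at 2 h and 2675, 2397, 1870 and 2531 CPM at 120 h, ranges that overlapped fully. Its log2 change on the TMM scale was −1.18 ± 0.21 (edgeR adjusted p = 0.000605) and was the smallest of the 14.

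mt-Tp stood at 196, 183, 211 and 197 CPM at 2 h and at 95.6, 96.3, 105.2 and 113.7 CPM at 120 h, with −2.18 ± 0.12 (edgeR adjusted p = 3.06e-07). The ribosomal RNAs changed by −2.16 ± 0.22 for mt-Rnr1 and −1.47 ± 0.28 for mt-Rnr2 in WT vehicle and by −3.89 ± 0.50 and −3.53 ± 0.53 in PkmΔDRE TCDD, whose 2 h group held the library with 3767 CPM of mt-Rnr1. Among members with nuclear copies, mt-Co3 changed by −3.11 ± 0.22, from between 11.9 and 14.8 CPM to between 2.94 and 4.04 CPM. In PkmΔDRE vehicle at 24 h mt-Nd5 had 0.065, a value whose sign turned with RLE scaling (−0.14).

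The size of these changes depended on the scaling. Computed over all libraries together, the TMM factors of WT vehicle libraries lay between 0.549 and 0.646 at 2 h and between 1.30 and 1.56 at 120 h. Each test used factors computed from its own libraries, which are not given here. With library totals alone, an alternative chosen after the data were seen, the median of all genes from 2 to 120 h moved from 0.16 to 1.41 in WT vehicle. The members' median was then −0.96 and 9 of 14 were called lower, and mt-Nd5 stood at 0.072. Relative to all genes in the same fit, the members' median was lower under both scalings. With library totals the counts in the other comparisons of 120 h with 2 h were 12 of 14 in WT TCDD, 9 of 14 in PkmΔDRE vehicle and 13 of 14 in PkmΔDRE TCDD. The shares of all genes called lower with library totals are not given here, so these counts are not set against them. Without any model, 10 of 14 members had all CPM at 120 h below all CPM at 2 h in WT vehicle, beside 9.85% of all genes. That count was 7 in WT TCDD (10.7%), 8 in PkmΔDRE vehicle (10.3%) and 10 in PkmΔDRE TCDD (9.59%). When the percentage of pairs on no gene was added to the fit, 1 member was called in WT vehicle, among 489 genes in all. In these libraries that percentage was 4.62% to 5.51% at 2 h and 8.57% to 10.7% at 120 h, without overlap. The fit therefore cannot separate it from time in culture, and no conclusion is drawn from the lost calls.

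**Figure D5:**
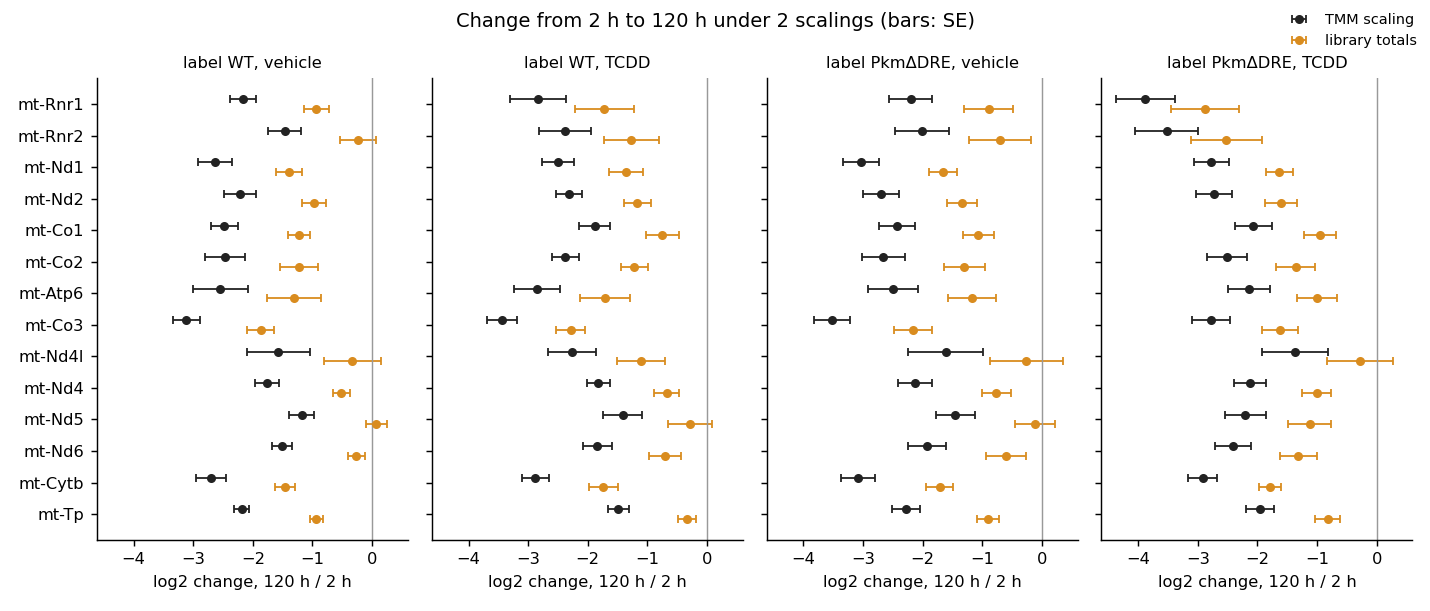
Log2 change from 2 h to 120 h with its SE for the 14 tested members in the 4 combinations of label and treatment, under TMM scaling (black) and library totals (orange). All TMM values lie below 0, with mt-Nd5 nearest to 0 in WT vehicle at −1.18, and the values by library totals lie above them.

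The composition within the mitochondrial genome shifted early. Of mitochondrial counts, mt-Nd5 took 5.49% at 2 h, 10.2% at 24 h and 9.56% at 120 h (medians of the 4 group means), and mt-Cytb took 11.8%, 7.92% and 8.10%. mt-Co1 moved less, from 47.9% to 47.3% and 51.6%. The ratio of mt-Nd5 to mt-Cytb counts, which needs no scaling between libraries, was 0.324, 0.365, 0.543 and 0.492 in WT vehicle at 2 h, 1.18, 1.30, 1.36 and 0.942 at 24 h and 1.40, 1.01, 1.27 and 1.32 at 120 h. The libraries of 2 h lay below all those of 24 h and 120 h. The ratio rose in the same way in WT TCDD, from between 0.361 and 0.643 at 2 h to between 1.18 and 1.53 at 120 h, and in PkmΔDRE vehicle, from between 0.317 and 0.506 to between 0.967 and 1.72. In PkmΔDRE TCDD the ranges of 0.439 to 0.908 and 0.580 to 1.42 overlapped. Both genes lie on the same strand at the end of the same long transcript, with mt-Nd6 between them on the other strand.

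The counts of these neighbours depend on how pairs that touch both genes are counted. When the counts by strand were summed in place of the unstranded count, mt-Nd5 rose 1.24-fold and mt-Nd6 2.42-fold, and mt-Cytb 1.04-fold. Pairs that touch both mt-Nd5 and mt-Nd6, such as those over the 14 bases they share, cannot be given to either in the unstranded count. The reads are unstranded, so in the sum of the strands such a pair can enter once for each gene. The rise is therefore not read as RNA of either strand.

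Nuclear genes that act on mitochondrial DNA and RNA were followed as a list of 46 genes, compiled from textbook roles. At 8 h in WT 14 of 44 tested were called higher and 3 lower under TCDD, beside 37.4% of all genes called and 23.8% called higher. The share of the list called was thus near that of all genes. By role, 8 of 18 tested genes of RNA processing rose and 2 fell, 3 of 9 of transcription rose, 1 of 10 of DNA maintenance rose, and 2 of 7 coactivators rose and 1 fell. Among them were Trmt10c, a subunit of the mitochondrial RNase P that frees transfer RNAs (log2 fold change 1.58 ± 0.28, edgeR adjusted p = 0.00160), the mitochondrial poly(A) polymerase Mtpap (1.40 ± 0.25) and Lrpprc, which stabilises mitochondrial messenger RNAs (1.35 ± 0.27). Tfam, which packages the mitochondrial DNA and activates its transcription, stood at 6.71, 4.02, 11.3 and 14.3 CPM in vehicle and at 13.98, 20.5, 40.4 and 23.9 CPM under TCDD, with 1.28 ± 0.33 (edgeR adjusted p = 0.00802). The polymerase itself did not pass the test. Polrmt stood at 45.6, 50.04, 48.4 and 51.5 CPM in vehicle and at 40.6, 62.8, 38.2 and 43.2 CPM under TCDD, with −0.23 ± 0.18 (edgeR adjusted p = 0.299). The coactivator Ppargc1a had 0.36 ± 0.46 (edgeR adjusted p = 0.537). Others of the largest changes were those of Mterf3 (1.53 ± 0.29), Fastkd5 (1.49 ± 0.34), Tfb2m (1.46 ± 0.32) and Pnpt1 (1.37 ± 0.31), genes of mitochondrial transcription and RNA handling. Called genes were named by the size of their absolute change, and the 3 called lower changed less than those named.

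At 96 h in WT 5 of 45 tested genes of the list were called higher and 1 lower, near the shares of all genes called (15.1%) and called higher (10.1%), among them Tfb2m (log2 fold change 0.74), Mtpap (0.64) and Lrpprc (0.63). No gene of the list was called in any other comparison of TCDD with vehicle, between the labels or for the difference of response. In WT vehicle 8 of 45 were higher and 11 lower at 120 h than at 2 h, beside 4718 higher and 3707 lower of all 13784 genes tested, with a median of −0.10 beside 0.16 for all genes.

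Over the 36 groups, the nuclear genes whose log2 mean level followed the summed level of the protein-coding members most closely, among 8153 genes with a mean of at least 10 CPM, were F13b (r = 0.922), Il1rap (0.905), Cd302 (0.895), Abhd3 (0.892) and Ugt2a3 (0.892). On the same scale Polrmt had r = −0.71. The groups share harvest times and treatments, so these are descriptions of likeness.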

How the data were processed

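The authors trimmed unstranded paired-end reads of total RNA with Trimmomatic 0.39, checked them with FastQC 0.11.3 and aligned them with STAR 2.7 to GRCm39. The deposited files give raw counts of uniquely mapped pairs per gene, in total and by strand, without normalization, and the total was used. Lines that name no gene were left out. Symbols came from GENCODE M21 (GRCm38) for 52083 of 55359 genes. Windows of 150 bases and copies were searched in the M21 transcripts with BLAST 2.17.0 (identity of at least 90%), a build other than that of the alignment, so a copy is a description of the annotation.

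Genes were kept by filterByExpr (minimum count 10, total 15), scaled with TMM and tested with the robust quasi-likelihood test of edgeR 4.0.16 under R 4.3.3, with Benjamini-Hochberg adjustment over all genes tested. A call needs an adjusted p below 0.05 and at least a 1.5-fold change. SE is the log2 fold change divided by the square root of F. Printed CPM are counts per 1000000 gene counts without TMM. Each treatment or label comparison used the 8 libraries of 1 time, the difference of response 16, and libraries were taken as unpaired. The alternatives were RLE scaling, scaling from nuclear genes, no filter, pairs on no gene (percent of uniquely mapped pairs) as a covariate, DESeq2 1.42.0, the adjusted p alone, the stranded counts summed, and leaving out each library. Library totals without TMM were added after the data were seen. The tests were checked on simulated counts. All protein-coding and ribosomal RNA members are named, transfer RNAs where they passed the filter or had the highest levels, and nuclear genes where called under TCDD (at most the 8 largest) or fixed by name. The members and lists were chosen with earlier results of these data known.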

Additional observations from a re-analysis of the deposited data

Results flagged for a closer look

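In each group of 4 libraries, a library was marked where its gap to the nearest other library took up most of the group's range (Dixon's criterion at 95%), which chance does in about 1 of 20 groups. Each of the 36 groups was examined for the mitochondrial share of gene counts and again for the ribosomal RNA share, and 8 of these 72 cases held such a library. The ribosomal RNA share is part of the mitochondrial share, so the 72 cases are not independent. For the mitochondrial share these were WT vehicle replicate 4 at 12 h (2.29%, below its group), WT TCDD replicate 3 at 48 h (3.37%, above), PkmΔDRE TCDD replicate 3 at 4 h (3.04%, below) and PkmΔDRE TCDD replicate 2 at 48 h (2.73%, above). For the share on mt-Rnr1 and mt-Rnr2 they were WT TCDD replicate 4 at 2 h (0.0485%, below), WT TCDD replicate 1 at 48 h (0.171%), PkmΔDRE vehicle replicate 4 at 96 h (0.225%, above) and PkmΔDRE TCDD replicate 2 at 2 h (0.876%, above).

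The counts by strand, which entered no test and served only as an alternative for the composition, held pairs on 7 transfer RNA genes whose unstranded median was 0. The sums of both strands had medians of 513.5 for mt-Tq, 353.5 for mt-Te, 186 for mt-Ty, 165 for mt-Ts1, 55 for mt-Tt, 39.5 for mt-Tw and 37 for mt-Ta. In the unstranded count mt-Te had 50 counts in all, mt-Tq 5 and mt-Ts1 1, and the other 4 had none. These 7 genes are 67 to 71 bases long, shorter than a 150-base read, and the reads are unstranded. A pair that also touches a neighbour on the other strand can enter the strand columns for both genes. The sums are therefore not read as levels of these transfer RNAs, and the part of such pairs was not tested.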

How the results depend on the processing

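No paired analysis was possible because the labels carry no replicate number, and the numbers printed here follow the order of the records. Outside the removal of single libraries, 278 counts of called members stayed within 1.5 times the reported count and 16 moved, and of the log2 changes 493 kept direction and side of the threshold, 42 lost the call, 7 gained it and 10 turned sign. Causes were not tested, and the shares of all genes called in these alternative fits are mostly not given here.

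Members called under TCDD in WT numbered 1 with no filter and 7 by adjusted p alone at 96 h, and 2 with the covariate and 2 with DESeq2 at 120 h. In PkmΔDRE they were 2 with no filter and 1 with DESeq2 at 2 h and 1 with DESeq2 at 48 h. Between labels at 12 h they were 1 with no filter, 2 with the covariate and 1 with DESeq2. For the difference of response at 8 h they were 2 with no filter. By library totals they were 6 at 24 h and 9 at 120 h in WT vehicle and 5 and 9 in PkmΔDRE vehicle, and with the covariate 1 at 120 h in WT vehicle. From the nuclear list, calls under TCDD in WT were 1 with DESeq2 at 24 h, 2 with the covariate and 14 by adjusted p alone at 96 h, and 1 with the covariate and 1 with DESeq2 at 120 h. In PkmΔDRE they were 3 with no filter and 2 with DESeq2 at 2 h, and 1 with no filter and 1 with the covariate at 72 h. Summing the strands gave mt-Nd5 11.1% of mitochondrial counts at 120 h and mt-Nd6 2.44% at 2 h and 3.39% at 120 h.

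The sign turned by library totals in WT vehicle for mt-Nd5 (0.42 at 24 h and 0.072 at 120 h) and mt-Nd6 (0.051 at 24 h), and in PkmΔDRE vehicle at 24 h for mt-Rnr1 (0.41), mt-Rnr2 (0.21) and mt-Nd6 (0.52). With the covariate mt-Nd4l stood at 0.53 at 120 h in WT vehicle. mt-Nd5 in PkmΔDRE vehicle at 24 h, 0.065 as reported, was −0.14 with RLE, −0.14 with DESeq2 and −0.38 with the covariate, and from −0.29 to 0.15 without single libraries (−0.01, −0.20 and −0.29 below 0).

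Without single libraries, members called under TCDD in WT ranged from 3 to 6 at 8 h, 1 to 2 at 96 h and 0 to 2 at 120 h, between labels from 0 to 1 at 12 h (1 without WT vehicle replicate 1), for the difference of response from 0 to 1 at 24 h, and in PkmΔDRE vehicle from 5 to 9 at 24 h (5 without 2 h replicate 1 or 3). Calls from the nuclear list ranged from 2 to 7 at 96 h (2 without TCDD replicate 2) and 0 to 2 at 120 h (2 without TCDD replicate 3) in WT, and in PkmΔDRE from 0 to 4 at 2 h (4 without vehicle replicate 2) and 0 to 7 at 72 h (7 without vehicle replicate 1). Hours at which the share did not overlap ranged from 1 to 2 in WT, 0 to 1 in PkmΔDRE and 1 to 2 between labels.

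mt-Nd3, mt-Atp8 and all transfer RNAs but mt-Tp did not pass the filter on low counts, and the cause of their low counts was not tested.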

Other observations

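The genes of the list of mitochondrial DNA and RNA metabolism were placed on the same correlation. The 5 nuclear genes named above were picked as its highest, so that the list's genes lie below them follows from that choice. Over the 36 groups the list's highest correlation with the summed protein-coding level was that of Hsd17b10, another subunit of the mitochondrial RNase P (r = 0.481), and its lowest were those of Rexo2, an RNA exonuclease (−0.78), and Esrra, a nuclear receptor of oxidative metabolism (−0.74). These are descriptions over groups that share harvest times.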
